A study of Mus musculus with 8 samples.

Results

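The Krüppel-like factor genes Klf2, Klf3, Klf4, Klf5, Klf6, Klf7, Klf9, Klf10, Klf13 and Klf17 were followed in mouse embryos at the 2-cell stage, in wild type and Brg1 mutant samples. They were taken by name, as every probe set whose single gene symbol in the platform annotation is one of these 10, out of 18193 genes with a single symbol. This gave 36 probe sets, between 1 and 7 for a gene, and 8 of the 10 genes had more than 1. The study measured RNA on Affymetrix arrays in 4 wild type and 4 Brg1 mutant samples, each pooled from 20 embryos. The series title concerns maternal BRG1, the ATPase encoded by Smarca4 that drives BAF chromatin remodelling complexes, and activation of the zygotic genome. Beyond the words wild type and Brg1 mutant, the alleles, the way the mutants were made, the strain and the time of collection are not given in the sources used here. Whether the samples of a group came from different litters or days is not stated either, and a p-value here reflects how far these samples differ, a spread that may be technical.

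Krüppel-like factors are transcription factors that bind GC-rich and CACCC sequences through zinc fingers at their C-terminal end, and the parts outside the fingers set whether a member activates or represses. Klf2, Klf4 and Klf5 encode activators that help hold mouse embryonic stem cells in the naive state, and Klf4 and Klf5 act in the first lineages of the blastocyst. Klf17 is expressed in the oocyte and the early embryo. Klf6 and Klf7 encode broadly expressed activators, Klf3 encodes a repressor that recruits CtBP, and Klf9, Klf10 and Klf13 encode repressors that recruit SIN3A. Klf10 is also known as a gene induced early by TGF-beta.

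Members of the family regulate one another, so the bases just before their start sites are of interest. The RefSeq promoter table (build GRCm38.p6) matched 8 of the 10 genes, and Klf5 and Klf10 had no entry. The 250 bases before the start are shown for Klf17, Klf9 and Klf6, which stand for a gene with high signal in both groups, a gene with lower mean signal in mutants on its tested probe sets, and a gene under background on most of its probe sets in wild type embryos. Each is written 5′ to 3′ on the gene's strand, with capitals marking the CACCC motif and the GC box GGGCGG, or their reverse complements GGGTG and CCGCCC. The windows lie at chr4:117765667-117765916 on the minus strand for Klf17, chr19:23140976-23141225 on the plus strand for Klf9 and chr13:5861239-5861488 on the plus strand for Klf6.
Klf17: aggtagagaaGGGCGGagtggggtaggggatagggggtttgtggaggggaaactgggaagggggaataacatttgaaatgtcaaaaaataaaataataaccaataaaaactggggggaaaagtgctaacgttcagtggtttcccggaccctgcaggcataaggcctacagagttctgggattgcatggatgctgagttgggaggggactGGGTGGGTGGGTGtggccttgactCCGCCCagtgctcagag
Klf9: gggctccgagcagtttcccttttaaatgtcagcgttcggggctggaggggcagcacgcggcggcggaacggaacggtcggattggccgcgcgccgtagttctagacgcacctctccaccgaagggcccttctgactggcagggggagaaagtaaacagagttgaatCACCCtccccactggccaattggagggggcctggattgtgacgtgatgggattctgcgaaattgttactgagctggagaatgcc
Klf6: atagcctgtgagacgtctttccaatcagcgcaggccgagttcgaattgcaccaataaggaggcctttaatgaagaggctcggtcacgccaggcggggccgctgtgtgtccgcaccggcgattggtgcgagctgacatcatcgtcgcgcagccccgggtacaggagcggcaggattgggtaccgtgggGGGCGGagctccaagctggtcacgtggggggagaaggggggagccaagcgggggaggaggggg

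Klf17 held 3 CACCC motifs and 2 GC boxes in this window, Klf9 held 1 and 0, and Klf6 held 0 and 1, counted on both strands with overlaps allowed. Of the other matched members, Klf3 held 5 and 6, Klf7 held 3 and 1, Klf4 held 0 and 4, Klf2 held 1 and 2, and Klf13 held 1 and 3. Of 32851 promoter windows of the same length, 52.01% held CACCC and 32.7% held GGGCGG, so that a match is common. Klf17 had 4 CpG dinucleotides against a median of 6 over all windows, and the other 7 genes had between 13 (Klf7) and 32 (Klf4). A match describes letters only, and the arrays do not measure binding.

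Oocyte and early embryo markers were present, but this list does not tell the 2-cell stage from an oocyte or a zygote. Of 11 such genes on the array, 10 lay above background on both arrays of each mutant pair, and Mos lay below it on all wild type arrays. The brighter Smarca4 probe set read between 612.1 and 796 in wild type and between 200.9 and 387.5 in mutant samples (log2 change -1.26, limma adjusted p = 0.0211). The other Smarca4 probe set did not pass (limma adjusted p = 0.963). Arrays also differed on the oocyte and embryo markers. The summed signal of these 11 markers was 47202.1 and 51050.1 in mutant replicates 1 and 2. It was 23698.6 and 20721.4 in mutant replicates 3 and 4, and between 18491.2 and 24684.6 in wild type. Mutant replicates 3 and 4 stood apart from the other 6 samples on granulosa and cumulus markers. The summed signal of 17 granulosa and cumulus markers was 26639.9 and 21257.5 in them, 1493.9 and 1209.9 in mutant replicates 1 and 2, and between 948.7 and 1277.9 in wild type. Hsd3b1, a steroidogenic enzyme of these cells, read 8835.3 and 6889 in replicates 3 and 4 and at most 50.5 elsewhere. Not all of the list rose in that pair. Amh and Ptx3 stayed under background on 7 arrays each. Cyp11a1 read 30.1 and 39.4 in replicates 3 and 4, against 25.8 to 59.7 in wild type. Other lists were mixed in that pair. The epithelial keratin gene Krt8 was high, at 554.6 and 618.7 against 88.8 to 94.7 in wild type. So was the leukocyte gene Cd52, at 360.4 and 453.1 against at most 48.2. On the same lists, Cldn4 was lower, at 34 and 49.2 against 58.3 to 90.9 in wild type. Cd74 was also lower, at 43.7 and 40.6 against 57.7 to 90.8. Spiked hybridization controls, set over their wild type mean, reached 4.81 and 3.37 in mutant replicates 1 and 2 and 1.24 and 0.713 in the other mutant pair. The ratio of 3 prime to 5 prime actin signal was 16.3 to 21.1 in wild type. It was 12.9 and 15.05 in mutant replicates 1 and 2, and 7.04 and 4.88 in replicates 3 and 4. The same ratio for Gapdh was 8.58 to 10.1 in wild type and 6.63 to 7.33 in mutants. For the main results, values from each mutant pair alone against the 4 wild type samples are therefore given beside those over all samples. What these differences between arrays contribute to the Klf values was not tested.

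Klf5 was the one member called among those bright enough to test, and it was lower in mutant embryos. Of 23 tested member probe sets, 1 passed and was lower (4.35%, where 3.58% of all 22518 tested probe sets were called lower), and 0 were called higher, where 2.98% of all were. A probe set was tested if its mean log2 signal over the 8 samples lay in the upper 50% of the array, and called if its limma adjusted p over all tested probe sets was under 0.05. At an unadjusted p under 0.05, 9 of the 23 (39.1%) would pass, 4 higher and 5 lower, beside 25.5% of all tested probe sets. Of all tested probe sets 11.99% would pass as higher and 13.53% as lower. The higher ones were Klf7 1449439_at and 1419355_at, Klf10 and Klf13 1436316_at. The lower ones were Klf5 1451021_a_at and all 4 tested Klf9 probe sets. Probe sets of the same gene are not independent, so the 39.1% is not read as a tendency of the family. The median log2 change was 0.02 over the 23 and -0.05 over all tested. Only 9 of the 10 genes had a tested probe set, because all 5 of Klf6 lay under the limit. In a pool of whole embryos, fewer cells of a type and less RNA per cell cannot be told apart.

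**Figure D1:**
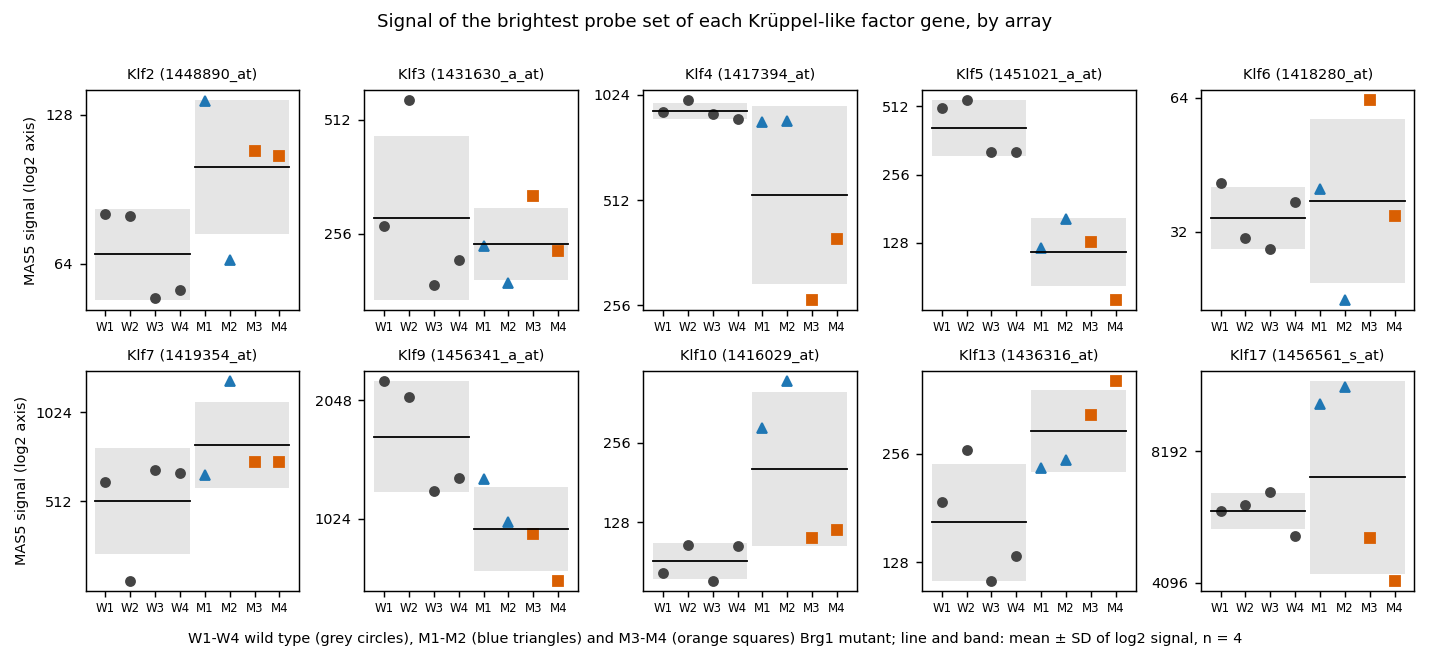
MAS5 signal (log2 axis) of the brightest probe set of each of the 10 genes on the 8 arrays, with wild type replicates W1 to W4 as circles, mutant replicates M1 and M2 as triangles and M3 and M4 as squares. Lines and bands are the mean and SD of log2 signal (n = 4). Klf5 is lower in every mutant sample than in any wild type sample, and Klf4, Klf10 and Klf17 differ between the mutant pairs.

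Klf5 encodes an activator needed in the blastocyst for both inner cell mass and trophectoderm. On its brightest probe set, 1451021_a_at, signal in wild type embryos was 503.3, 543.2, 322.9 and 320.0, and in mutants it was 121.4, 163.6, 128.9 and 72.0. The groups did not overlap, and the highest mutant sample lay well below the lowest wild type sample. Wild type replicates 1 and 2 lay above wild type replicates 3 and 4. The mean signal was 422 ± 118 in wild type and 121 ± 37.8 in mutants (SD, n = 4 each), a 3.52-fold fall (log2 change -1.81, SE 0.314, limma adjusted p = 0.0157). Mutant replicates 1 and 2 alone gave -1.54 (limma adjusted p = 0.0229) and replicates 3 and 4 alone -2.09 (limma adjusted p = 0.00095). The call ended without wild type replicate 1 or 4, at log2 changes of -1.72 and -1.93 (limma adjusted p = 0.0647 and 0.0518).

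Other Klf5 probe sets did not give this picture. On 1451739_at wild type samples kept between 95.8 and 109.8, while mutant samples read 133.7 and 189.5 in replicates 1 and 2 and 51.1 and 61.5 in replicates 3 and 4, above wild type in one pair and below it in the other. Over all samples this probe set had a log2 change of -0.13 (95% interval -1.03 to 0.77, limma adjusted p = 0.878), with 0.62 from replicates 1 and 2 (limma adjusted p = 0.175) and -0.88 from replicates 3 and 4 (limma adjusted p = 0.0152). A dim probe set, 1430255_at, was not tested and read 36.8, 43.6, 29.5 and 5.7 in wild type and 13.2, 10.7, 14.7 and 18.8 in mutants. The annotation does not say which part of the transcript each one reads.

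The genes whose profile over the 8 arrays lay closest to that of Klf5 were Itga10, an integrin subunit gene, and Hesx1, a homeobox repressor gene. Likeness was the root mean square difference in log2 signal after centring each gene on its wild type mean, and it was 0.27 for Itga10 and 0.29 for Hesx1 among 11933 genes compared. Itga10 read 425.3, 429.9, 289 and 406.2 in wild type and 141.8, 149.4, 90.1 and 73.1 in mutants. Hesx1 read 215.6, 172.8, 80.3 and 142.7 in wild type and 41.8, 54.4, 56.6 and 31.8 in mutants.

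Klf4, one of the factors that reprogram somatic cells to pluripotency, was lower in 1 pair of mutant samples. Its brighter probe set read 912.1, 988.4, 903.3 and 874.6 in wild type, 855.4 and 862.6 in mutant replicates 1 and 2, and 265.7 and 396.7 in replicates 3 and 4. All mutant samples lay below all wild type samples, but replicates 1 and 2 by little. Over all samples Klf4 did not pass (log2 change -0.80, SE 0.371, limma adjusted p = 0.207). In replicates 3 and 4, where the granulosa marker signal was high, the change was -1.50 (limma adjusted p = 0.00049), and in replicates 1 and 2 it was -0.10 (limma adjusted p = 0.805). The second Klf4 probe set had the same pattern, with a change of -1.12 in replicates 3 and 4 (limma adjusted p = 0.0101) and 0.03 in replicates 1 and 2 (limma adjusted p = 0.961).

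Klf2, the third of the stem cell activators, was dim and did not pass. Its probe set read 80.7, 79.9, 54.7 and 56.8 in wild type and 136.5, 65.1, 108.4 and 105.6 in mutants, so that mutant replicate 2 lay within the wild type range and the other 3 above it. The log2 change was 0.59 (95% interval -0.10 to 1.27, limma adjusted p = 0.266), with 0.49 from replicates 1 and 2 and 0.68 from replicates 3 and 4 (limma adjusted p = 0.435 and 0.0761).

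Klf17 kept a high signal in both groups. On 1429303_at wild type samples read 2421.6, 2927.6, 2626 and 2610.1 and mutant samples 2824.8, 3263.3, 2379.9 and 2310, with overlapping ranges. The log2 change was 0.02, with a 95% interval from -0.47 to 0.50 (limma adjusted p = 0.976), and its sign turned under quantile normalization and median centring. The brightest Klf17 probe set, 1456561_s_at, read 5253.5 to 6614 in wild type, 10523.6 and 11513.5 in mutant replicates 1 and 2, and 5197.5 and 4145.5 in replicates 3 and 4. It did not pass over all samples (log2 change 0.26, limma adjusted p = 0.697), and passed from replicates 1 and 2 alone (log2 change 0.88, limma adjusted p = 0.0193), the pair with high hybridization controls. Probe set 1438899_at followed the same order at lower signal, at 423.7 and 761.5, then 173.7 and 171.7, against 182.1 to 353.8 in wild type (limma adjusted p = 0.684). The maternal transcript Dppa3 also read high in that pair, at 11204 and 9466.6 against 5843.9 to 7204 in wild type and 5467.5 and 4709 in replicates 3 and 4.

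**Figure D2:**
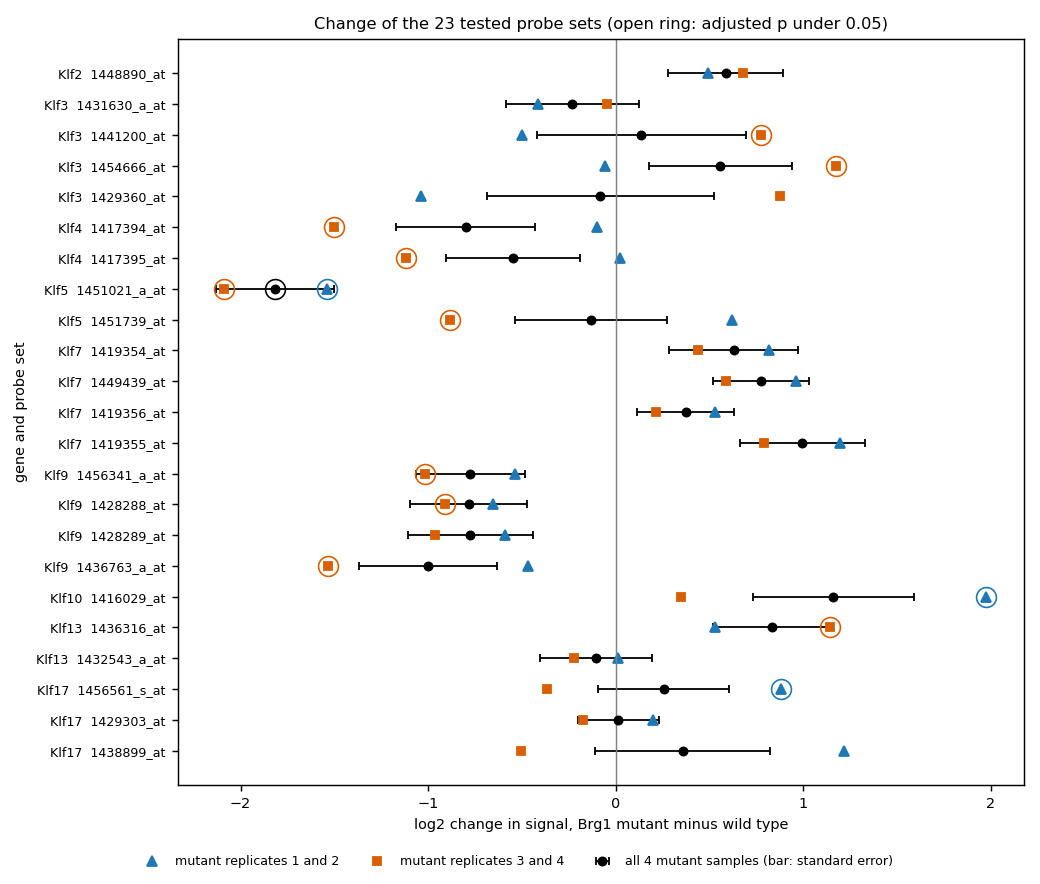
Log2 change in signal, Brg1 mutant minus wild type, for the 23 tested member probe sets. Black circles with standard error bars use all 4 mutant samples, triangles mutant replicates 1 and 2 and squares replicates 3 and 4, each against the 4 wild type samples, and open rings mark a limma adjusted p under 0.05. Klf5 1451021_a_at is ringed in all 3 fits, and 9 of the 23 probe sets have opposite signs in the pairs.

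The calls were also listed for each mutant pair. From replicates 1 and 2 alone, 3 of the 23 probe sets were called: Klf10 and Klf17 1456561_s_at were higher (8.70%, beside 3.6% of all tested) and Klf5 was lower (4.35%, beside 3.11%). From replicates 3 and 4 alone 10 were called, 3 higher (13.04%, beside 18.3% of all tested) and 7 lower (30.4%, beside 23.2%). These were 2 probe sets of Klf3 and 1 of Klf13 higher, and 3 of Klf9, both of Klf4 and 2 of Klf5 lower. Of the 23, 14 had the same sign in both pairs and 9 opposite signs. The pairs share the 4 wild type samples, and the difference between them was not tested.

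Klf10, the TGF-beta inducible repressor gene, was high in 1 mutant pair. Its probe set read 82.4, 104.7, 77.1 and 103.9 in wild type, 292.4 and 439.2 in mutant replicates 1 and 2, and 112.1 and 120.1 in replicates 3 and 4. All 4 mutant samples lay above all wild type samples, replicates 3 and 4 by little. Over all samples it did not pass (log2 change 1.16, SE 0.431, limma adjusted p = 0.126). From replicates 1 and 2 the change was 1.97 (limma adjusted p = 0.00897) and from replicates 3 and 4 it was 0.35 (limma adjusted p = 0.282).

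Klf9, a hormone-responsive repressor gene, had lower mean signal in mutants on its 4 tested probe sets, none of which passed. Their log2 changes lay between -0.77 and -1.0 (limma adjusted p between 0.124 and 0.176), and all 4 were negative in each mutant pair. On the brightest, 1456341_a_at, wild type samples read 2289.5, 2085.6, 1207.8 and 1301.8, and mutant samples 1293.6, 1007.2, 937.8 and 715.1. The wild type samples fell into a high pair, replicates 1 and 2, and a low pair, replicates 3 and 4, and mutant replicate 1 lay between the latter. The same split of the wild type samples was seen on 1428289_at (773.5 and 841 against 319.8 and 447.4) and 1436763_a_at (360.8 and 379.5 against 200.4 and 203.4). It was not particular to Klf9. Wild type replicates 1 and 2 also lay above replicates 3 and 4 on Klf5 1451021_a_at, Klf2 and both tested Klf13 probe sets. They lay below replicates 3 and 4 on all 4 Klf7 probe sets. From mutant replicates 3 and 4 alone 3 of the 4 passed, with changes of -1.02, -0.91 and -1.53 (limma adjusted p = 0.0189, 0.0235 and 0.00498), and from replicates 1 and 2 none did (limma adjusted p between 0.301 and 0.415). Of its 3 dim probe sets, 1422264_s_at read 65.3, 66.4, 23.3 and 29.8 in wild type and 25, 3.2, 16 and 11.7 in mutants, and 1452723_at and 1436952_at read at most 43.7 and 48.7.

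**Figure D3:**
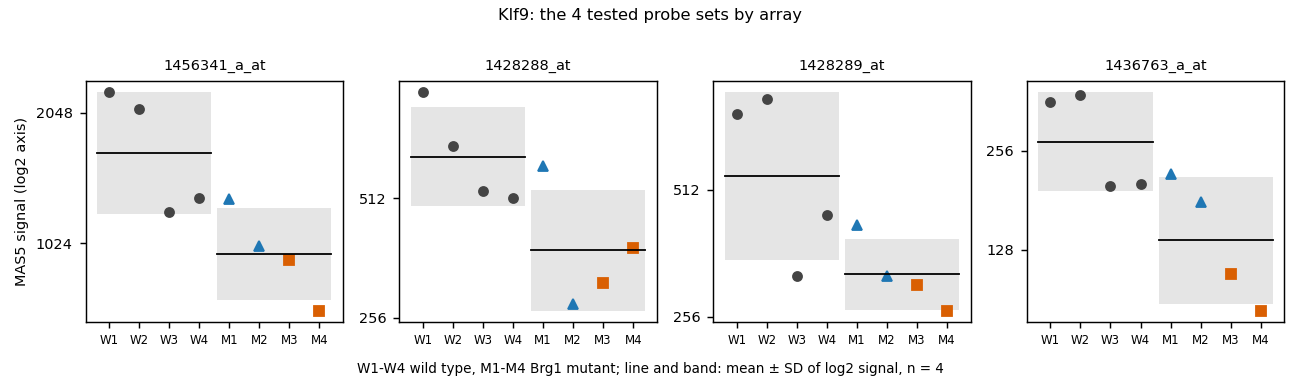
MAS5 signal (log2 axis) of the 4 tested Klf9 probe sets on the 8 arrays, with wild type replicates W1 to W4, mutant replicates M1 to M4, and lines and bands for the mean and SD of log2 signal (n = 4). The groups overlap on each probe set, and wild type replicates 1 and 2 lie above the other 6 samples on 4 of 4.

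Klf13, which encodes a related SIN3A-binding repressor, gave different readings on its probe sets. On 1436316_at wild type samples read 188.1, 262.9, 114 and 133.2 and mutant samples 233, 245.2, 328.1 and 407.1, with replicates 3 and 4 highest (log2 change 0.84, SE 0.318, limma adjusted p = 0.134). It passed from replicates 3 and 4 alone (log2 change 1.14, limma adjusted p = 0.0216) and not from replicates 1 and 2 (0.53, limma adjusted p = 0.370). On 1432543_a_at the mutant samples, at 127.1 to 163.1, lay inside the wild type range of 103 to 238.2 (log2 change -0.11, 95% interval -0.76 to 0.55, limma adjusted p = 0.863). The third probe set stayed under background on all 8 arrays.

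Klf7, an activator gene known from neurons, had higher mean signal in mutants on all 4 of its probe sets, and none passed. The most separated, 1449439_at, read 296.4, 325.2, 386.6 and 446.4 in wild type and 542.9, 903.3, 532 and 547.2 in mutants, without overlap (log2 change 0.78, SE 0.256, limma adjusted p = 0.0936). Probe set 1419355_at also did not overlap, at 51.8 to 105.2 against 118.1 to 234.5 (log2 change 0.995, SE 0.333, limma adjusted p = 0.0967). The groups overlapped on 1419354_at and 1419356_at, whose changes were 0.63 and 0.37 (limma adjusted p = 0.285 and 0.406). All 4 changes were positive in each mutant pair, and none passed in either pair. Mutant replicate 2 was the highest sample on 3 of the 4. Wild type and mutant ranges were apart for 5 of the 23 tested member probe sets, 3 with mutants higher (Klf10 and 2 of Klf7) and 2 with mutants lower (Klf5 and Klf4). This is 13.04% and 8.70%, beside 7.83% and 9.67% of all tested probe sets.

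Klf3, which encodes a CtBP-dependent repressor, had 7 probe sets of which 4 were tested and 0 passed over all samples. On the brightest, wild type samples read 268.6, 577.3, 187.6 and 217.9 and mutant samples 237, 189.4, 322.2 and 231.1, so that the groups overlapped (log2 change -0.23, 95% interval -1.02 to 0.56). Probe set 1454666_at read 74.7 to 104.9 in wild type, 110.4 and 62.4 in mutant replicates 1 and 2, and 200.5 and 188.9 in replicates 3 and 4, where it passed (log2 change 1.17, limma adjusted p = 0.00438). On 1441200_at mutant replicate 1 read 28.7 and the other mutants 142 to 220.9, against 91.4 to 125.7 in wild type. It passed from replicates 3 and 4 alone (log2 change 0.77, limma adjusted p = 0.0408). The remaining tested one, 1429360_at, had a log2 change of -1.04 from replicates 1 and 2 and 0.87 from replicates 3 and 4 (limma adjusted p = 0.297 and 0.120). The untested Klf3 probe sets were dim, and the groups overlapped on each.

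Klf6, a growth-inhibiting factor gene induced by injury and stress, was under background in wild type embryos on 4 of its 5 probe sets and read higher in mutants on those 4, while the fifth showed no such difference. Its probe set 1433508_at read 17.4, 3.4, 5.9 and 13.4 in wild type and 53.4, 73, 94.8 and 136.4 in mutants. Every wild type value lay under the bound on background, which is the 95th percentile of 27 Bacillus control probe sets on each array, and every mutant value lay above it. Mutant signal was thus at least 3.47-fold higher, at least 2.57-fold in replicates 1 and 2 and at least 4.69-fold in replicates 3 and 4. In the fit of all 45037 probe sets without a filter it passed (limma adjusted p = 0.0239).

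On 4 of the 5 Klf6 probe sets the mutant samples all lay above the wild type samples, beside 6.72% of all 45037 probe sets (5.82% had all mutant samples lower). The 5 read the same gene and are not independent. Of the 36 family probe sets, 7 had all mutant samples higher and 3 had all lower. Probe set 1447448_s_at read at most 4.4 in wild type and 11.2, 21.7, 40.5 and 64.8 in mutants, and passed without a filter (limma adjusted p = 0.0238). Probe sets 1427742_a_at and 1459718_x_at did not pass (limma adjusted p = 0.0697 and 0.0932). For these 3 the bound is less firm, since mutant replicates 1 and 2 lay under it on 1427742_a_at and 1447448_s_at and replicate 2 on 1459718_x_at. The remaining one, 1418280_at, read 41.1, 30.9, 29.3 and 37.3 in wild type and 40, 22.5, 63.2 and 34.7 in mutants (limma adjusted p = 0.909). It lay above the bound on 3 of 4 wild type and 3 of 4 mutant arrays. Across the array without a filter, 1.43% of probe sets were called higher and 1.31% lower, beside 2 higher and 1 lower of the 36 of the family.

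Both Klf6 calls were lost without mutant replicates 3 and 4. Without that pair, which carried the granulosa marker signal, the log2 change of 1433508_at was 2.92 (limma adjusted p = 0.0920) and that of 1447448_s_at 3.26 (limma adjusted p = 0.0695). Without replicates 1 and 2 they were 3.78 and 4.97 (limma adjusted p = 0.00708 and 0.00224). On 1447448_s_at all wild type values and mutant replicates 1 and 2 lay under background, so its log2 changes are not firm sizes. Set against the bound, its mutant signal was at least 2.11-fold higher in replicates 3 and 4. In replicates 1 and 2 the same ratio was 0.643, which shows no rise. The call of 1433508_at was also lost without wild type replicate 1, 3 or 4 and mutant replicate 3 or 4 (limma adjusted p between 0.0559 and 0.0763). That of 1447448_s_at was lost without any 1 wild type replicate and without mutant replicate 3 or 4 (limma adjusted p between 0.0536 and 0.0835).

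**Figure D4:**
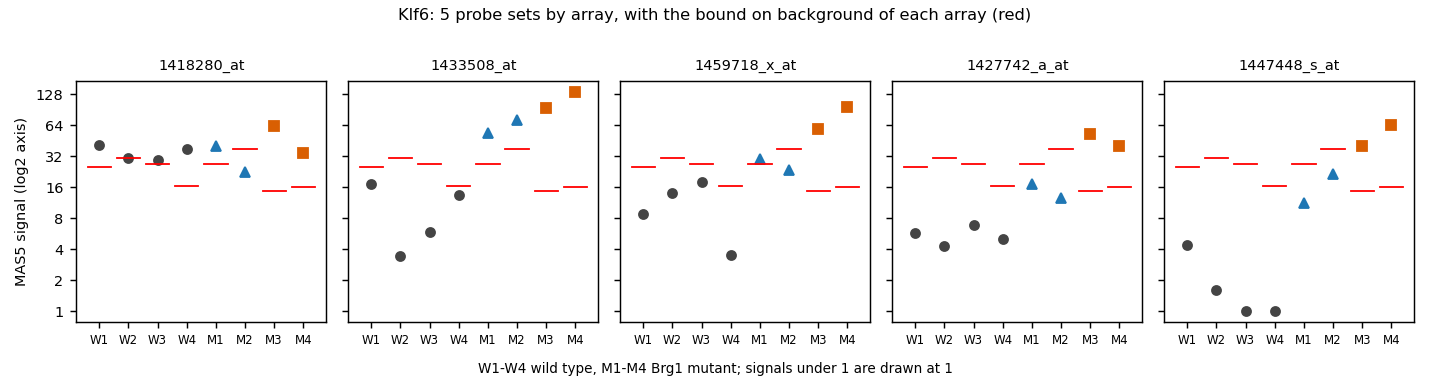
MAS5 signal (log2 axis) of the 5 Klf6 probe sets on the 8 arrays, with wild type replicates W1 to W4 and mutant replicates M1 to M4, and a red line at the bound on background of each array. On 1433508_at all wild type values are under the bound and all mutant values above it, whereas on 1418280_at the groups overlap.

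The lists of genes around the family held 1 called gene each. Taking 1 probe set a gene, 3.01% of all 11934 tested genes were called higher and 4.03% lower, and with 8 to 14 genes tested in a list, nothing is read from its single call. Of 13 other SP and KLF family genes on the array 8 were tested, and Sp3, a close relative that binds GC boxes, fell 2.11-fold (limma adjusted p = 0.0415), from 188.9 to 350.8 in wild type to 95.1 to 142.4 in mutants. The other 7 did not pass, among them Sp1 at 1487 ± 184 and 1404 ± 239 (SD, n = 4 each, log2 change -0.09, limma adjusted p = 0.842). The list's median log2 change was -0.08, beside -0.05 over all tested genes. The Sp3 call was lost from mutant replicates 1 and 2 alone (limma adjusted p = 0.0788), with no filter (0.0560), with no intensity trend (0.0514), and without any 1 wild type replicate or mutant replicate 3 or 4 (limma adjusted p between 0.0526 and 0.133).

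Of 14 genes for corepressors, coactivators and ubiquitin ligases of the family, 1 rose and 13 did not pass, at a median of -0.07. Over all tested genes, 3.01% were called higher. Ctbp1, the corepressor gene whose product Klf3 recruits, read 174.4, 175.1, 236.5 and 214.7 in wild type, 303.6 and 361.9 in mutant replicates 1 and 2, and 674 and 823.5 in replicates 3 and 4 (2.50-fold higher, limma adjusted p = 0.0432). From replicates 3 and 4, the pair with granulosa marker signal, it passed (log2 change 1.91, limma adjusted p = 0.000196), and from replicates 1 and 2 it did not (0.74, limma adjusted p = 0.110). It was also lost with median centring, no filter or no intensity trend (limma adjusted p = 0.0843, 0.0585 and 0.0551), and without any 1 wild type replicate or mutant replicate 3 or 4 (between 0.0939 and 0.126). Sap30, a subunit of the SIN3 complex, read 2253 ± 414 in wild type and 1697 ± 240 in mutants (SD, n = 4 each, limma adjusted p = 0.305).

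Of 10 tested genes of the LIF-STAT3 and MEK5-ERK5-MEF2 routes, which induce Klf4 and Klf2, 1 fell and 9 did not pass. Over all tested genes, 4.03% were called lower. Map3k3, a kinase gene upstream of MEK5, read 741.7, 1164.3, 611.4 and 716.5 in wild type and 335.7, 240.9, 338.8 and 401 in mutants, a 2.42-fold fall (limma adjusted p = 0.0251), and it passed from each mutant pair (limma adjusted p = 0.0249 and 0.00912). The call was lost without any 1 wild type replicate or mutant replicate 3 or 4 (limma adjusted p between 0.0502 and 0.0829). Of its other 2 probe sets 1 passed in the same direction. Jak2 did not pass (log2 change -0.08, limma adjusted p = 0.925). Of 10 tested pluripotency partners, 1 fell and 9 did not pass, beside the same 4.03% of all tested genes called lower. The median of the partners was -0.33 (all tested genes -0.05). Tbx3, a T-box factor gene of naive stem cells, fell 3.81-fold from 916, 925.8, 498.3 and 586 to 281.6, 291.1, 106.6 and 134.7 (limma adjusted p = 0.0209), and passed from each pair (limma adjusted p = 0.0368 and 0.000198). This call too was lost without any 1 wild type replicate or mutant replicate 3 or 4 (limma adjusted p between 0.0519 and 0.0779). Wild type Tbx3 signal was higher in replicates 1 and 2 than in replicates 3 and 4.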

How the data were processed

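The values were array intensities, 1 MAS5 signal for each of 45101 probe sets on a linear scale, deposited by the authors as MAS5 output per the submitters' processing notes, with no version stated there. The arrays share 1 trimmed mean, so no scaling was added. Values under 1 were raised to 1 before taking log2. With 64 control probe sets left out, probe sets were ranked by mean log2 signal over the 8 samples and the upper 50% (22518) fitted with limma 3.58.1 in R 4.3.3 (two-sided moderated test, eBayes with trend), with Benjamini-Hochberg adjustment over all tested probe sets and a threshold of 0.05. Filtering on the mean removes genes that are dim in both groups. It also removes some that are near the floor in wild type and brighter in mutants. Klf6 1433508_at was such a case, with a mean log2 signal of 4.72 where the lowest tested was 5.25. Klf6 was therefore read from a fit of all 45037. MAS5 subtracts mismatch signal, and changes of dim probe sets are the least certain. The number of arrays limits the precision.

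For genes outside the family, the brightest tested probe set stood for the gene. From each list the genes that passed, at most the 4 with the smallest adjusted p, and the one with the highest wild type signal were named, and Dppa3 is that gene for the pluripotency list. For a member that passed, the 2 genes nearest in profile were named. RefSeq names (GRCm38.p6) were found for 10 of 10 members. The members, lists, bound on background and mutant pairs were chosen with earlier results of these data known.

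Marker lists for other cell types were granulosa and cumulus (12 tested, 0 passed over all samples, 8 higher from mutant replicates 3 and 4 alone), oviduct epithelium (9 tested, 1 higher; 3 higher from that pair), blood and leukocytes (4 tested, 0 passed; 2 higher), sperm (2 tested, 0 passed; 2 lower), and oocyte and early embryo (10 tested, 2 higher; 3 higher and 2 lower). Beside these, of all 11934 tested genes 359 were higher and 481 lower over all samples. From mutant replicates 3 and 4 alone, 2289 were higher and 2906 lower. Replicate numbers are shared by both groups in the labels. Samples of the same number did not deviate together (correlation of deviations from the group mean between -0.18 and 0.02). The fit without a block was therefore kept. Alternatives were quantile normalization, median centring, no filter, the upper 30%, adding 16 to each signal, eBayes with no intensity trend, weighting arrays, blocking on the replicate number, dropping probe sets whose names end in _x_at or _s_at, and leaving out each sample or mutant pair.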

Additional observations from a re-analysis of the deposited data

Results flagged for a closer look

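In 5 of 72 groups of 4 samples, 1 per probe set and genotype, a single sample lay far from the other 3 on the log2 scale; chance flags about 1 in 20 such groups. Of the 5, 4 are Klf7 values and 3 of those come from mutant replicate 2. Klf7 1419354_at read 277.1 in wild type replicate 2 against 596.5 to 652.4 in the other wild type samples, and 1303.1 in mutant replicate 2 against 628.7 to 695.4 in the other mutants. Klf7 1449439_at read 903.3 in mutant replicate 2 against 532 to 547.2, and Klf7 1419355_at read 234.5 there against 118.1 to 131.5. Klf9 1452723_at, a dim probe set, read 4 in mutant replicate 4 against 32.6 to 41.7 in the other mutants.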

How the results depend on the processing

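Of 434 log2 changes of the 23 tested probe sets under 19 settings, 374 kept their direction and side of the threshold, 24 gained a call, 3 lost one and 33 turned sign, and 13 probe sets never turned. The causes were not tested. The 3 lost calls are all of Klf5 1451021_a_at, at a log2 change of -1.81 with the replicate block (limma adjusted p = 0.0636) and without wild type replicate 1 or 4. The count of Klf calls, 1 as reported, was 2 with median centring, 3 with no filter, 12 with array weights, 0 with the replicate block, 3 without mutant replicates 3 and 4, 10 without replicates 1 and 2, and 0 to 2 with a single sample left out. All calls on the array, 1478 as reported, came to 11486 with array weights, 15 with the replicate block and 9358 without mutant replicates 1 and 2. With 1 sample left out they ranged from 73 (wild type replicate 4) to 2926 (mutant replicate 2). Split into higher and lower they were 671 and 807, with median centring 421 and 1557, where the median of all changes moved from -0.05 to -0.22. Replicate numbers share only a number, and a call lost under the block is not read as a weaker effect.

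The other SP and KLF genes, with 1 call reported, had 2 with median centring, array weights or without mutant replicates 1 and 2, 0 with no filter, no intensity trend, the replicate block or without replicates 3 and 4, and 0 to 2 with 1 sample left out. The cofactors (1) had 3 with median centring or the upper 30%, 2 after adding 16, 11 with array weights, 10 without mutant replicates 1 and 2, 0 with no filter, the replicate block or without replicates 3 and 4, and 0 to 6 with 1 sample left out. The inducers (1) had 2 with median centring, no filter or the upper 30%, 7 with array weights, 6 without mutant replicates 1 and 2, 0 with the replicate block, and 0 to 2 with 1 sample left out. The pluripotency partners (1) had 3 with median centring, 2 with no filter or without mutant replicates 3 and 4, 6 with array weights or without replicates 1 and 2, 0 with the replicate block, and 0 to 2 with 1 sample left out. For these 4 lists, leaving out any 1 wild type sample or mutant replicate 3 or 4 gave 0. Beside these counts, 11486 of all 22518 tested probe sets were called with array weights and 9358 without mutant replicates 1 and 2.

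Log2 changes that turned sign were all uncalled as reported. Without mutant replicates 3 and 4 they were -0.50 for Klf3 1441200_at, -0.057 for Klf3 1454666_at, 0.026 for Klf4 1417395_at, 0.62 for Klf5 1451739_at, 0.013 for Klf13 1432543_a_at and -0.19 for Klf6 1418280_at (no filter). Without mutant replicates 1 and 2 they were 0.87 for Klf3 1429360_at and -0.37, -0.17 and -0.50 for Klf17 1456561_s_at, 1429303_at and 1438899_at. Array weights gave 0.23 for Klf3 1431630_a_at, 0.86 for Klf3 1429360_at, and -0.21, -0.12 and -0.49 for the same 3 Klf17 probe sets. Quantile normalization gave -0.064 for Klf3 1441200_at, -0.18 for Klf17 1456561_s_at and -0.0064 for Klf17 1429303_at. Median centring gave -0.039 for Klf3 1441200_at and -0.16 for Klf17 1429303_at, and adding 16 gave 0.0043 for Klf3 1429360_at. With 1 sample left out, the changes ran from -0.43 to 0.11 for Klf3 1431630_a_at, -0.18 to 0.80 for Klf3 1441200_at, -0.46 to 0.51 for Klf3 1429360_at, -0.47 to 0.17 for Klf5 1451739_at, -0.31 to 0.10 for Klf13 1432543_a_at, -0.082 to 0.084 for Klf17 1429303_at, -0.070 to 0.65 for Klf17 1438899_at and, with no filter, -0.12 to 0.37 for Klf6 1418280_at.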
